A study of Capra hircus with 6 samples.

Results

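The NMDA and AMPA receptors are the ionotropic glutamate receptors that carry most fast excitatory transmission in the brain. Of 10 subunit genes chosen by name, 9 were matched to the mRNA table of goat hypothalamus by their NCBI gene identifier: 5 NMDA subunits (GRIN1, GRIN2A, GRIN2C, GRIN2D and GRIN3A) and 4 AMPA subunits (GRIA1, GRIA2, GRIA3 and GRIA4). They held 19 of the 30678 named transcripts in the table, out of 20225 genes, and GRIN2B was not analysed here. Hypothalamus RNA came from 6 female Anhuai goats kept on 1 farm and anesthetized with pentobarbital sodium before tissue was taken, with 1 library per goat. Neither the labels nor the methods name another treatment or an altered gene. The goats were 3 pubertal goats of 4.5 to 5 months, taken late in the follicular phase, and 3 prepubertal goats of 2.5 to 3 months. The stages therefore differ in age and body growth as well as in puberty, and these cannot be told apart. Expression is given in FPKM, fragments scaled by transcript length and by the mapped fragments of the library, and the level of a gene is the sum over its transcripts. The FPKM table holds no read counts, and no counting interval is given.

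An NMDA receptor is a tetramer that needs the GRIN1 subunit, together with GRIN2 subunits that bind glutamate and set the speed and magnesium block of the channel, or GRIN3 subunits that lower its calcium flow. An AMPA receptor is a tetramer of GRIA subunits, in which an edited GRIA2 subunit keeps calcium out. In the hypothalamus, glutamate is a main excitatory input to GnRH neurons, and NMDA receptor activity is known to bear on the timing of puberty.

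The libraries had a median log2(FPKM + 1) of 3.21 to 3.26 over the transcripts averaging 1 FPKM or more. A single transcript, XM_013977338.1, held 21.4% to 52.7% of the summed FPKM, which ran from 813233 to 1448560 per library. Of 9 hypothalamic markers listed, 5 were matched. PMCH, the precursor of melanin-concentrating hormone, was at 673 to 2173 FPKM, and the transcription factors SIM1 and FEZF1 were at 3.03 to 4.11 and 2.44 to 4.59 FPKM. OTP was low, at 0.411 to 1.16 FPKM. AVP was listed at 0 in all 6 libraries, and this value was not read as absence. The cortical genes SLC17A7 and NEUROD6 stayed at or below 1.81 and 2.17 FPKM. The summed level of 10 neuron markers was 2133 to 2524 FPKM in pubertal and 2421 to 2716 FPKM in prepubertal libraries, and 9 of these 10 markers had a log2 change below 0 (median -0.11). The 5 anterior pituitary markers summed to 45.8 to 66.8 FPKM in pubertal and 3.75 to 20.9 FPKM in prepubertal libraries. Most of this was CGA, at 39.4 to 62.5 and 2.24 to 18.0 FPKM. Of the 5, 4 had a log2 change above 0, and LHB had a change of -0.03. The 8 markers of cortex, hippocampus and striatum summed to 23.4 to 24.7 and 14.5 to 23.0 FPKM, with ADORA2A listed at 0 in 4 libraries. Most of this sum was PPP1R1B, at 18.1 to 19.9 and 11.7 to 19.0 FPKM. Oligodendrocyte markers summed to 1209 to 4415 FPKM in pubertal and 826.4 to 1991 FPKM in prepubertal libraries, and choroid plexus markers to 3.84 to 325.7 and 6.17 to 56.0 FPKM. The part of these in the values below was not tested. In bulk tissue, fewer cells of a type and less RNA per cell cannot be told apart.

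The mean level of each AMPA subunit was above that of each NMDA subunit analysed, with GRIA4 and GRIN1 not separable. GRIA2 had the highest level, 106.4 ± 11.2 FPKM (SD, n = 6 libraries), followed by GRIA1 at 93.6 ± 9.17 FPKM. GRIA3 stood at 46.6 ± 6.97 FPKM and GRIA4 at 39.1 ± 4.92 FPKM. The obligatory NMDA subunit GRIN1 was at 33.0 ± 4.12 FPKM and came close to GRIA4. GRIN3A, a GRIN3 subunit known for its expression in young brain, was at 13.1 ± 1.40 FPKM. The GRIN2 subunits analysed, which leave out GRIN2B, were the lowest. GRIN2A was at 2.88 ± 0.352 FPKM, GRIN2D at 2.07 ± 0.242 FPKM and GRIN2C at 1.23 ± 0.425 FPKM (SD, n = 6 for each).

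Neighbours in this order were compared within each library, over 8 pairs. The order came from the same 6 libraries, so the pairs and their direction were picked from the values tested. GRIA2 lay above GRIA1 in 6 of 6 libraries by a mean of 1.14-fold (adjusted p = 0.0417, exact sign-flip permutation test, two-sided). The unadjusted p of 0.03125 (exact permutation) is the smallest that 6 libraries allow, and it was reached by 6 of the 8 pairs. Among these, GRIA1 exceeded GRIA3 by 2.02-fold, GRIN1 exceeded GRIN3A by 2.52-fold and GRIN3A exceeded GRIN2A by 4.55-fold. The steps from GRIN2A to GRIN2D and from GRIN2D to GRIN2C were 1.39-fold and 1.77-fold, each in 6 of 6 libraries. The order of GRIA3 over GRIA4 held in 5 of 6 libraries (adjusted p = 0.107, exact permutation) and that of GRIA4 over GRIN1 in 4 of 6 (adjusted p = 0.125, exact permutation), so neither pair differed beyond the spread between goats. The gene models behind these levels were of unequal extent. GRIN1 was represented by 1 transcript of 1083 nt and GRIN2D by 1 of 1788 nt, both shorter than a full coding sequence of these genes. GRIN2C had 1 of 3236 nt, not checked for completeness, and GRIN2A had 1 of 6929 nt. Whether the partial models move the levels of GRIN1 and GRIN2D was not tested.

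**Figure D1:**
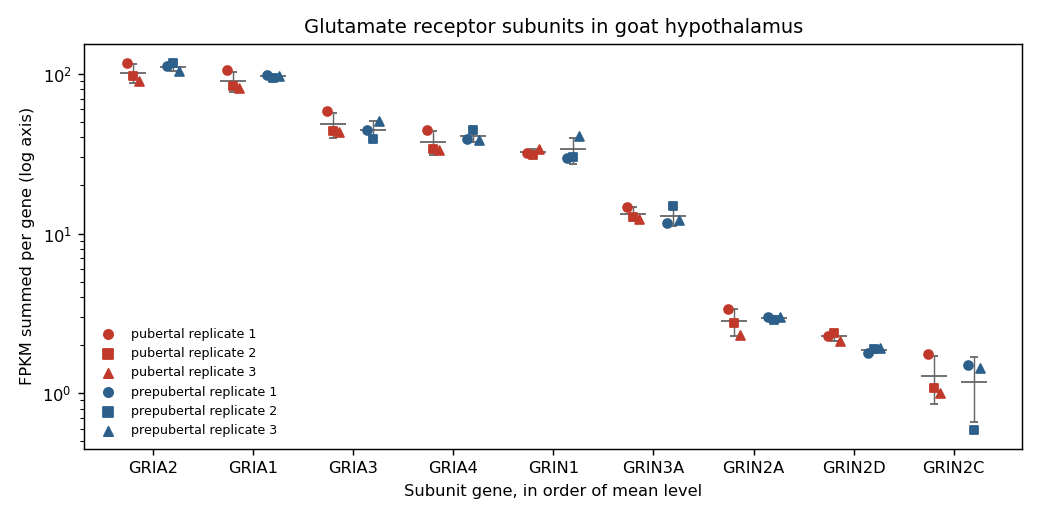
FPKM per subunit gene (log axis) in each of the 6 libraries, with pubertal goats in red and prepubertal goats in blue. Horizontal bars are the mean of 3 libraries and whiskers the SD. GRIA2 and GRIA1 sit near 100 FPKM, the 3 GRIN2 genes analysed between 0.585 and 3.39 FPKM, and the stages overlap in every gene but GRIN2D.

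The question put to the NMDA subunits was whether their levels differed between pubertal and prepubertal goats. Values of single libraries are given in the order of replicates 1, 2 and 3. GRIN1 measured 32.2, 31.1 and 34.1 FPKM in the pubertal goats and 29.8, 30.2 and 40.8 FPKM in the prepubertal goats. The highest value was prepubertal replicate 3, and the stages overlapped. Its log2 change, pubertal minus prepubertal on log2(FPKM + 1), was -0.04 (standard error [SE] 0.13, limma adjusted p = 0.991). Without prepubertal replicate 3 it was 0.11. GRIN2A, the GRIN2 subunit of mature fast NMDA receptors, measured 3.39, 2.74 and 2.32 FPKM in the pubertal goats and 2.99, 2.86 and 3.001 FPKM in the prepubertal goats. The prepubertal goats lay close together, inside the range of the pubertal goats, and the log2 change was -0.06 (SE 0.13, limma adjusted p = 0.980).

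GRIN2D, which forms slow NMDA receptors with weak magnesium block and is known from early brain development and the diencephalon, was the subunit whose stages did not overlap. It measured 2.29, 2.39 and 2.13 FPKM in the pubertal goats. In the prepubertal goats it measured 1.78, 1.90 and 1.92 FPKM. Every pubertal goat lay above every prepubertal goat. The group means were 2.27 ± 0.135 and 1.87 ± 0.0793 FPKM (SD, n = 3 each), a ratio of 1.22. The log2 change was 0.19 (SE 0.11), and it did not pass the test over all genes (adjusted p = 0.962 from limma). With each library left out in turn it ran from 0.16 to 0.22, and stages without overlap fix its sign there in advance. Non-overlap was found in 1 of the 9 subunits, against 9.75% of the 16397 genes tested (5.91% with the pubertal goats higher, as here, and 3.84% with them lower).

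GRIN2C, the GRIN2 subunit best known from cerebellum and astrocytes, was the most variable subunit, with a coefficient of variation of 34.5% over the 6 libraries against 9.8% to 15.0% for the others. It measured 1.77, 1.08 and 1.002 FPKM in the pubertal goats and 1.504, 0.585 and 1.45 FPKM in the prepubertal goats. Prepubertal replicate 2 was the lowest, the stages overlapped, and the log2 change of 0.08 (SE 0.21, limma adjusted p = 0.986) became -0.13 without that library. GRIN3A measured 14.8, 12.7 and 12.3 FPKM in the pubertal goats and 11.7, 14.9 and 12.1 FPKM in the prepubertal goats. The highest goat of each stage had nearly the same GRIN3A level, and its log2 change was 0.04 (SE 0.12, limma adjusted p = 0.988).

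Among the AMPA subunits, GRIA1, GRIA2 and GRIA4 had the same arrangement of libraries. GRIA2 measured 117.5, 97.0 and 90.3 FPKM in the pubertal goats and 112.5, 117.2 and 103.6 FPKM in the prepubertal goats. GRIA1, the subunit tied to activity-dependent insertion of receptors, measured 105.2, 83.8 and 81.5 FPKM and then 98.6, 94.5 and 97.7 FPKM. GRIA4, a subunit of fast-gating receptors, measured 44.8, 33.9 and 33.6 FPKM and then 38.9, 44.6 and 38.7 FPKM. In each of the 3 genes pubertal replicate 1 lay above all other libraries, while pubertal replicates 2 and 3 lay below all prepubertal goats. For GRIA2 and GRIA4, prepubertal replicate 2 came close to pubertal replicate 1. The arrangement was not particular to AMPA subunits, as the NMDA subunit GRIN2A and the trafficking gene NSF had it too. Its share over all genes was not computed. The log2 changes were -0.14 for GRIA2 (SE 0.11), -0.11 for GRIA1 (SE 0.11) and -0.13 for GRIA4 (SE 0.13), with an adjusted p of 0.962 from limma for each.

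GRIA3, an X-linked subunit gene, measured 58.5, 44.0 and 43.0 FPKM in the pubertal goats and 44.4, 38.8 and 50.7 FPKM in the prepubertal goats. Its log2 change was 0.11 (SE 0.14, limma adjusted p = 0.969), and the stages overlapped. Pubertal replicate 1 was the highest library in GRIA3 as well, and without it the log2 change was -0.03.

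None of the 9 subunits (0) had an adjusted p under 0.05 in limma, and 0 had an unadjusted p under 0.05, against 5.16% of all genes tested (3.51% higher and 1.65% lower in the pubertal goats). The count over all 16397 genes at the adjusted threshold was also 0 (0%). The median log2 change was -0.04 over the 9 subunits and -0.00065 over all genes. The precision allowed by 3 goats a stage is shown by the 95% intervals. For GRIN1 the interval ran from -20.5% to 19.8% on the FPKM + 1 scale, for GRIA1 from -22.4% to 10.2% and for GRIA2 from -24.0% to 9.15%. The widest interval belonged to GRIN2C, from -24.2% to 48.1%. This scale understates the change of the GRIN2 genes, whose levels are near the added 1 FPKM. When pubertal replicate 1 was left out, 3 subunits (GRIA1, GRIA2 and GRIA4) were lower in the pubertal libraries at an unadjusted p under 0.05, with log2 changes of -0.23, -0.24 and -0.26, and 0 passed the adjusted threshold. In that fit 7.56% of all genes were lower at the same threshold. Without pubertal replicate 3 the log2 changes of GRIA1, GRIA2 and GRIA4 were -0.0453, -0.0553 and -0.0585. When each library was centred on the neuron markers, the median log2 change of all genes moved to 0.12, and GRIA1, GRIA2 and GRIA4 stood at 0.01, -0.01 and -0.0041.

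**Figure D2:**
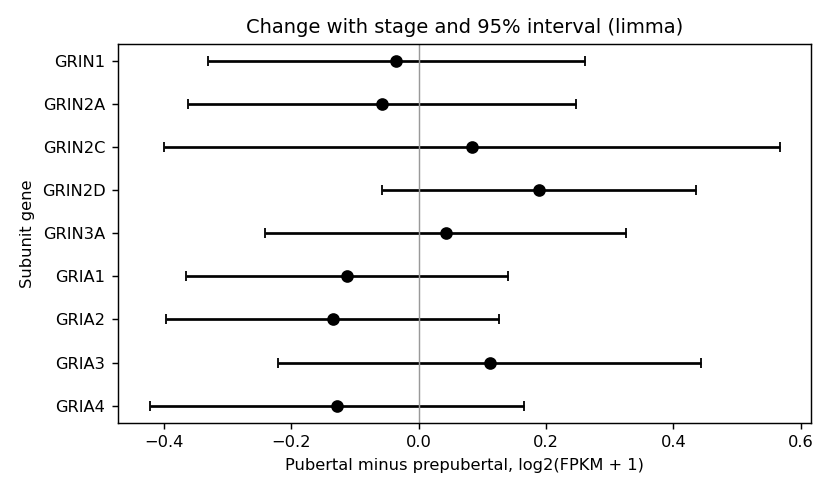
Log2 change of each subunit gene between pubertal and prepubertal libraries on log2(FPKM + 1), as points with 95% intervals from limma (3 goats a stage). All 9 intervals include 0, and GRIN2D is the farthest from it at 0.19.

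Subunit ratios were compared because the composition of a receptor can change while its total does not. There were 9 ratios and 7 shares, and an exact permutation test of 3 goats against 3 cannot give a p under 0.1. Summed over genes, the AMPA subunits measured 326.0, 258.8 and 248.4 FPKM in the pubertal goats and 294.5, 295.2 and 290.6 FPKM in the prepubertal goats. The 5 NMDA subunits, which leave out GRIN2B, summed to 54.4, 50.04 and 51.9 FPKM and to 47.7, 50.5 and 59.3 FPKM. The ratio of the AMPA to the NMDA sum was 5.32 ± 0.617 in pubertal and 5.64 ± 0.66 in prepubertal goats (SD, n = 3 each), a difference within the spread (exact permutation p = 0.7, adjusted 0.9).

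Within the GRIN2 genes analysed, GRIN2A made up 45.5%, 44.1% and 42.6% of the sum of GRIN2A, GRIN2C and GRIN2D in pubertal replicates 1, 2 and 3. In prepubertal replicates 1, 2 and 3 it made up 47.7%, 53.5% and 47.1%. All prepubertal goats lay above all pubertal goats, with a pubertal minus prepubertal difference of -5.35 percentage points between the means (exact permutation p = 0.1, the smallest possible, adjusted 0.9). Without prepubertal replicate 2 the difference was -3.32 percentage points, and with stages that do not overlap its sign could not reverse. The GRIN2A share was the only 1 of the 16 ratios and shares whose stages did not overlap. If stage made no difference, 3 goats would separate fully from 3 with a probability of 0.1 for each ratio. The sum under this share also holds GRIN2D, whose own stages did not overlap. GRIN2D held 36.1% ± 4.64 of the sum in pubertal and 31.4% ± 3.76 in prepubertal goats (SD, n = 3 each, exact permutation p = 0.2), and GRIN2C 19.8% ± 3.43 and 19.2% ± 7.18. These shares leave out GRIN2B and are not shares of all GRIN2 mRNA.

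Set against GRIN1, the level of GRIN2D was 0.0702 ± 0.00733 in pubertal and 0.0566 ± 0.00831 in prepubertal goats (SD, n = 3 each), a difference of 0.32 on the log2 scale (exact permutation p = 0.2, adjusted 0.9). Without prepubertal replicate 3, the goat with the highest GRIN1 level, it was 0.19. GRIN2A to GRIN1 was 0.0873 ± 0.0186 against 0.0895 ± 0.0142, and GRIN3A to GRIN1 was 0.41 ± 0.0482 against 0.394 ± 0.0985 (SD, n = 3 each). The GRIN2 sum (GRIN2A, GRIN2C and GRIN2D, without GRIN2B) was 0.197 ± 0.0359 of GRIN1 in pubertal and 0.181 ± 0.0276 in prepubertal goats. The 3 last ratios overlapped between the stages (exact permutation p = 0.8, 0.8 and 0.7). As GRIN1 rests on a partial transcript, the ratios to it can be read between goats but not as numbers of subunits per receptor.

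The AMPA subunits kept close proportions across the 6 goats. GRIA2 was 35.6% to 39.7% of the AMPA sum, GRIA1 32.0% to 33.6%, GRIA3 13.2% to 17.9% and GRIA4 13.1% to 15.1%. GRIA2 had the highest share in every library. GRIA1 to GRIA2 was 0.887 ± 0.0209 in pubertal and 0.875 ± 0.0682 in prepubertal goats, and GRIA4 to GRIA2 was 0.368 ± 0.0166 and 0.367 ± 0.0183 (SD, n = 3 each). GRIA3 to GRIA2 was at 0.498, 0.454 and 0.476 in pubertal and at 0.394, 0.331 and 0.489 in prepubertal replicates 1, 2 and 3. Prepubertal replicate 3 fell among the pubertal goats in this ratio, and the stages overlapped, with a difference of 0.25 on the log2 scale (exact permutation p = 0.3, adjusted 0.9). It was 0.11 without prepubertal replicate 2 and 0.40 without prepubertal replicate 3.

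**Figure D3:**
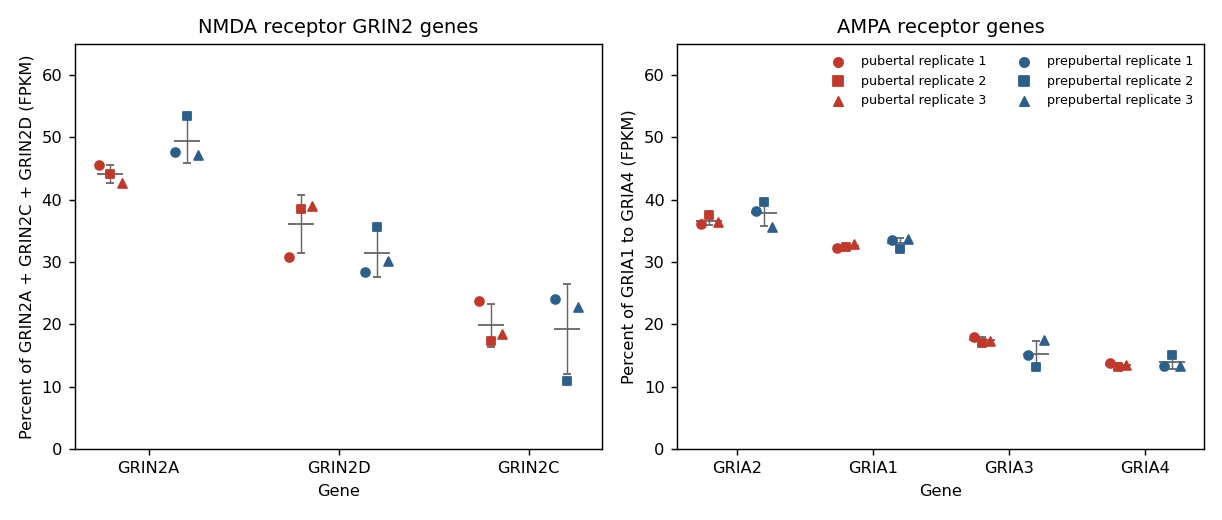
Share of each gene in the sum of GRIN2A, GRIN2C and GRIN2D (left) and in the sum of the 4 AMPA genes (right), in percent of FPKM per library. Horizontal bars are means of 3 libraries and whiskers the SD. The GRIN2A share lies between 42.6% and 45.5% in pubertal and between 47.1% and 53.5% in prepubertal libraries, and the AMPA shares overlap between the stages.

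Each NMDA gene and GRIA2 had 1 transcript in the table, so the gene and transcript values are the same for them. The remaining 13 transcripts belonged to GRIA1 (4), GRIA3 (3) and GRIA4 (6). XM_005683203.1 led GRIA1 with 71.3% to 73.9% of its FPKM. It measured 75.5, 60.3 and 58.8 FPKM in the pubertal goats and 72.9, 67.4 and 69.9 FPKM in the prepubertal goats. XM_005683204.1 added 11.4 to 18.8 FPKM, XM_013965710.1 6.61 to 12.6 FPKM and XM_013965711.1 1.71 to 2.17 FPKM. GRIA3 was almost all XM_005700350.2, 92.2% to 94.2% of the gene, with 54.3, 40.6 and 39.9 FPKM in the pubertal goats and 41.8, 36.2 and 46.9 FPKM in the prepubertal goats. The noncoding XR_001297497.1 was at 0.674 to 2.503 FPKM and XM_005700351.2 at 0.581 to 2.01 FPKM.

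GRIA4 was divided more evenly. XM_005689340.2 held 30.8% to 39.8% of the gene, at 12.8 to 16.2 FPKM. XM_005689341.2 was at 6.20 to 11.4 FPKM and XM_013969380.1 at 5.23 to 9.21 FPKM. XM_005689339.2 and XM_005689338.2 were at 1.96 to 4.41 and 1.02 to 3.03 FPKM. The widest range, 7.39-fold from the lowest to the highest library, was that of XM_013969381.1, with 5.59, 0.928 and 4.32 FPKM in the pubertal goats and 4.17, 6.86 and 3.47 FPKM in the prepubertal goats. Pubertal replicate 2 was far below the other goats for this transcript, and its log2 change of -0.48 (SE 0.46, limma adjusted p = 0.978) became 0.06 without that library.

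Of the 19 transcripts, 0 had an adjusted p under 0.05 in limma (0% of 23821 transcripts tested) and 0 an unadjusted p under 0.05 (4.87% of all, 2.87% higher and 2% lower). The median log2 change was -0.01. GRIN2D was again the transcript whose stages did not overlap, 1 of 19, against 9.56% of all transcripts (5.52% with the pubertal goats higher, 4.04% lower).

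**Figure D4:**
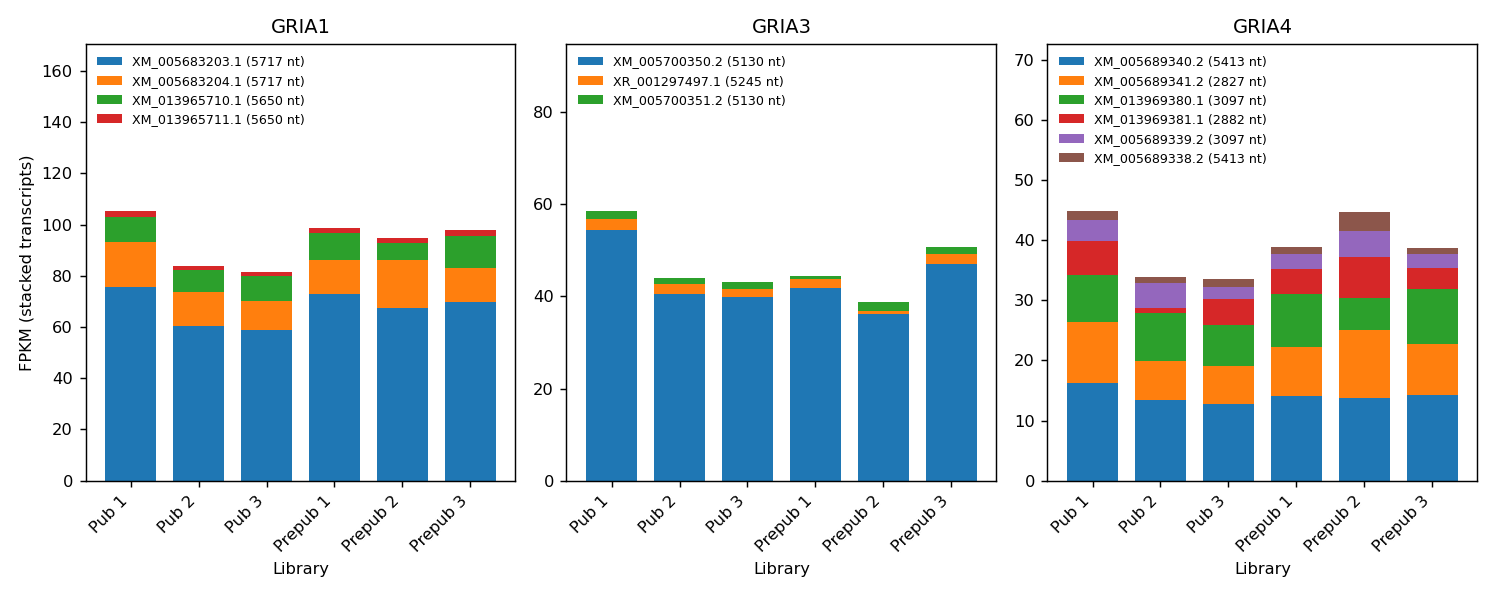
FPKM of each transcript of GRIA1, GRIA3 and GRIA4, stacked within each library, with the transcript length in nt in the legend. GRIA1 and GRIA3 are each dominated by 1 transcript in all 6 libraries, and GRIA4 is spread over 6.

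AMPA receptor genes carry a pair of mutually exclusive exons, called flip and flop, which give messages of the same length. Among the transcripts, 5 pairs had equal length within a gene: 5717 and 5650 nt in GRIA1, 5130 nt in GRIA3, and 5413 and 3097 nt in GRIA4. Whether they are flip and flop forms was not tested. These pairs were picked after their values were seen, so the following is a description. The lower transcript of the 5717 nt pair of GRIA1 made up 19.0%, 18.2% and 16.3% of its pair in pubertal and 15.3%, 21.8% and 15.7% in prepubertal replicates 1, 2 and 3. In GRIA3 the lower transcript made up 3.01%, 3.08% and 3.26% and then 1.37%, 5.26% and 3.04%. For the 3097 nt pair of GRIA4 the shares were 30.2%, 33.7% and 22.2% in pubertal and 22.1%, 45.8% and 19.4% in prepubertal replicates 1, 2 and 3.

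Prepubertal replicate 2 had the highest share of the lower transcript in all 5 pairs, which come from 3 genes. The lowest share was in prepubertal replicate 1 for 3 pairs and in prepubertal replicate 3 for the other 2, so both ends of the range were prepubertal goats and the pubertal goats lay between them. In the 5413 nt pair of GRIA4 the share was 18.1% in prepubertal replicate 2 and at most 9.93% elsewhere. In the 5650 nt pair of GRIA1 it was 20.6% there and at most 17.8% elsewhere. Over 97 pairs of equal length in other genes, prepubertal replicate 2 was the highest library in 11.3% and pubertal replicate 3, the most frequent, in 22.7%. Pairs of 1 gene share reads and are not independent, and the number of reads that tell the transcripts of a pair apart is unknown.

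**Figure D5:**
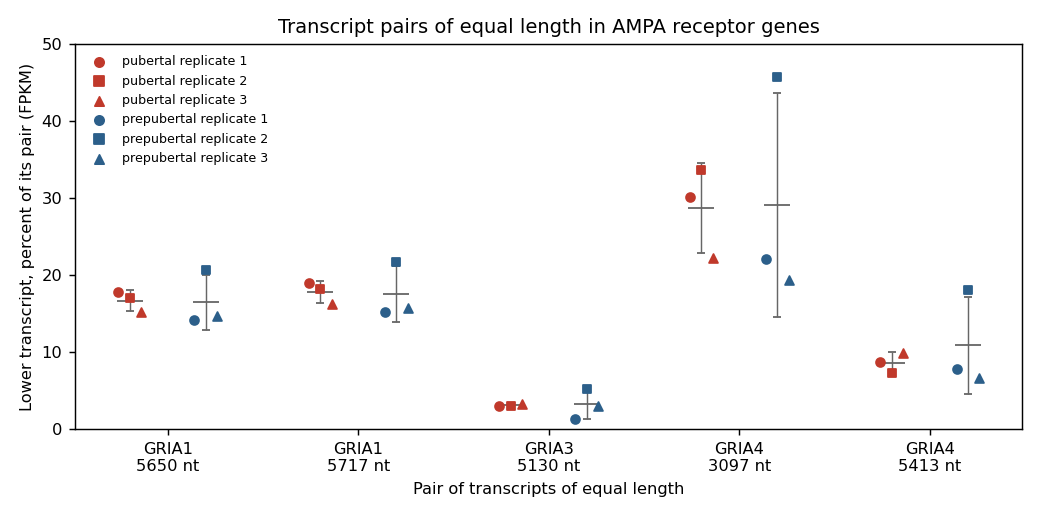
Share of the lower transcript in each pair of equal-length transcripts of GRIA1, GRIA3 and GRIA4, in percent of the FPKM of the pair, per library. Horizontal bars are means of 3 libraries and whiskers the SD. The blue square, prepubertal replicate 2, is the highest point in all 5 pairs.

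The other genes of glutamate signalling were taken from 58 listed genes, of which 54 were tested. Among them 0 had an adjusted p under 0.05 and 0 an unadjusted p under 0.05 in limma, against 0% and 5.16% of all genes. A log2 change above 0 was found in 27 and below 0 in 27, and the median was -0.0027. Of the 7 other ionotropic receptors tested, the kainate receptor genes GRIK2 and GRIK1 were the highest at 31.7 ± 1.32 and 19.2 ± 1.85 FPKM (SD, n = 6). The largest change was that of GRIK3, 14.8 ± 1.41 FPKM (SD, n = 6) with a log2 change of 0.15. GRIN3B, the other GRIN3 gene, had a mean of 0.0770 FPKM, under the minimum for the test. GRIN3A was thus the GRIN3 gene with the higher level in all 6 libraries.

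Of the 8 metabotropic receptors, which signal through G proteins, GRM5 and GRM7 were the highest at 25.8 ± 1.18 and 20.3 ± 1.83 FPKM (SD, n = 6). GRM7 and GRM8 had the largest log2 changes, 0.15 and -0.15. Among 12 auxiliary subunits, which sit beside AMPA and kainate channels and shape their gating and trafficking, SHISA7 stood apart. It measured 831.4, 352.9 and 469.3 FPKM in the pubertal goats and 405.5, 362.9 and 229.9 FPKM in the prepubertal goats, with pubertal replicate 1 far above the rest. Its log2 change of 0.67 (SE 0.32) did not pass the test (adjusted p = 0.962 from limma). The SHISA7 level rests on 1 transcript, and whether this gene model is complete was not tested. CNIH2, a cornichon that slows AMPA receptor deactivation, was at 21.7 ± 3.81 FPKM (SD, n = 6), and CNIH3 had a log2 change of -0.19. NETO2, a kainate receptor partner, measured 14.5, 13.2 and 13.1 FPKM in the pubertal goats and 15.4, 15.0 and 14.6 FPKM in the prepubertal goats, so its stages did not overlap (log2 change -0.14, adjusted p = 0.962 from limma).

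Among 19 scaffold and trafficking genes, NSF, the ATPase that binds GRIA2, and DLG4, the postsynaptic density scaffold PSD-95, were the highest at 180.1 ± 17.0 and 49.9 ± 3.99 FPKM (SD, n = 6). SHANK3, a scaffold of the postsynaptic density, had the largest log2 change, 0.23, and DLGAP1 followed at -0.18. In the last list of 8 genes, the kinase genes CAMK2G and CAMK2D led at 74.1 ± 3.20 and 64.3 ± 5.99 FPKM (SD, n = 6). CAMK2D and CAMK2B had the largest log2 changes, -0.15 and -0.15. CAMK2G measured 78.3, 76.9 and 75.1 FPKM in the pubertal goats and 71.6, 70.2 and 72.4 FPKM in the prepubertal goats, and its stages did not overlap (log2 change 0.10, adjusted p = 0.962 from limma). NETO2 and CAMK2G were the 2 of the 54 genes tested (3.7%) without overlap, against 9.75% of all genes. ADARB1, the enzyme that edits the GRIA2 message, was at 10.9 to 17.0 FPKM with overlapping stages.

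The genes whose profile over the 6 libraries was most like that of a subunit were found by the root mean square difference of log2(FPKM + 1) after the mean of each gene was subtracted, over 14081 genes with a mean of at least 1 FPKM. For GRIA2 they were BTF3 (0.00968), PPP1R9A (0.0112) and AASDHPPT (0.0138), where the profile of GRIA2 itself had a root mean square of 0.141. For GRIA1 they were ZFYVE9 (0.0148), TMEM70 (0.018) and ZNF311 (0.0222). GRIN2A was nearest to FAM213A (0.0203), FH (0.0221) and EPT1 (0.027), and GRIN1 to DPF1 (0.0281), ZFHX4 (0.0307) and KIAA1024 (0.0476). Each difference is a description over 6 libraries, chosen from many genes, and has no test.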

How the data were processed

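Total RNA of 6 hypothalami was depleted of ribosomal RNA and sequenced as strand-specific paired-end libraries. The authors aligned reads by TopHat, built transcripts by Scripture and Cufflinks 2.1.1, and deposited FPKM per transcript and library, normalized for transcript length and mapped fragments; the genome build is not given in the sources used here. A comparison table by Cuffdiff 2.1.1 was used for gene identifiers and transcript lengths only, and its group values, fold changes and p-values were not used. Symbols came from the RefSeq gene table of ARS1.2 (19083 of 20225 genes matched), whose coordinates were not used. Every library column of the mRNA table was matched to a goat, and 1 row without a transcript name was left out.

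FPKM values were summed per gene. The test was limma 3.58.1 in R 4.3.3 (trend, two-sided) on log2(FPKM + 1) for features with a mean of at least 0.1 FPKM, with Benjamini-Hochberg adjustment over all of them and a threshold of 0.05. It was tested on simulated data. Exact permutation tests used Python 3.11.15. The subunits and lists were chosen with earlier results of these data known. The genes named are the subunits with all their transcripts, the 2 highest and the 2 most changed genes of each list, the 3 nearest profiles, and GRIN3B, NETO2 and ADARB1, which were chosen after their values were seen. Some genes that this rule names are not reported here. The libraries are separate goats. Replicate numbers were not found to pair the libraries. Other pseudocounts, minimum levels, scalings, a replicate block and leaving out each library were run as alternatives.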

Additional observations from a re-analysis of the deposited data

How the results depend on the processing

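No subunit gene or transcript (0) passed the adjusted threshold under any alternative run: another pseudocount (0.1), minimum level or scaling, limma without a trend, the replicate block, or each library left out. GRIN2D kept its sign throughout (0.16 to 0.22 with 1 library left out, 0.11 under quantile normalization, 0.31 after neuron-marker centring). Its stages did not overlap, so leaving out 1 library could not reverse it. Centring on the neuron markers moved the median of all genes to 0.12, split the calls at an unadjusted p under 0.05 into 1047 higher and 53 lower genes (575 and 271 in the main test), and reversed GRIA1 (0.0115), GRIN1 (0.0885), GRIN2A (0.0661), XM_005683203.1 (0.00557), XM_005683204.1 (0.0487), XM_013965710.1 (0.0652), XM_013965711.1 (0.11) and XM_013969380.1 (0.12), with 4 of 54 other glutamate genes then higher at an unadjusted p under 0.05 (6.39% of all genes) against 0. Quantile normalization reversed GRIN2C (-0.00127) and XM_005689339.2 (-0.0160), library-median centring XM_005689340.2 (-0.0165), and the smaller pseudocount XM_013969380.1 (0.00204). With only the most abundant transcript of each gene, the GRIA4 share reversed (0.374 percentage points) and 3 of 16 ratios or shares did not overlap, against 1. The cause was not tested.

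With 1 library left out in turn, log2 changes ran from -0.23 to -0.0453 for GRIA1, -0.24 to -0.0553 for GRIA2, -0.26 to -0.0585 for GRIA4, -0.0278 to 0.21 for GRIA3, -0.11 to 0.11 for GRIN1, -0.16 to 0.0376 for GRIN2A, -0.13 to 0.20 for GRIN2C and -0.0312 to 0.14 for GRIN3A. Among transcripts they ran from -0.24 to 0.0880 for XM_005683204.1, -0.36 to 0.14 for XM_005689338.2, -0.13 to 0.26 for XM_005689339.2, -0.0867 to 0.0714 for XM_005689340.2, -0.0409 to 0.19 for XM_005700350.2, -0.16 to 0.30 for XM_005700351.2, -0.30 to 0.11 for XM_013965710.1, -0.0850 to 0.0534 for XM_013965711.1, -0.23 to 0.12 for XM_013969380.1 and -0.82 to 0.0638 for XM_013969381.1. Differences in log2 ratio to GRIN1 ran from -0.19 to 0.12 for GRIN2A, -0.14 to 0.55 for GRIN2C, 0.19 to 0.40 for GRIN2D, -0.11 to 0.26 for GRIN3A and -0.00730 to 0.26 for the GRIN2 sum, and those to GRIA2 from -0.0351 to 0.0776 for GRIA1, 0.11 to 0.40 for GRIA3 and -0.0368 to 0.0409 for GRIA4. The AMPA to NMDA ratio ran from -0.18 to -0.0114 on the log2 scale, the GRIN2A share from -6.52 to -3.32, the GRIN2C share from -3.50 to 3.02, the GRIN2D share from 3.20 to 7.40 and the GRIA4 share from -0.750 to 0.199 percentage points. Between 0 and 3 subunit genes, and 0 and 3 subunit transcripts, were lower at an unadjusted p under 0.05, the 3 only without pubertal replicate 1, where 7.56% of all genes and 6.35% of all transcripts were lower (1.65% and 2% in the main test). Other glutamate genes numbered 0 to 2 higher and 0 to 3 lower of 54, the most without pubertal replicate 1, where 5.98% of all genes were higher and 7.56% lower. Non-overlapping ratios and shares numbered 1 to 4 of 16, with 4 without prepubertal replicate 2 or prepubertal replicate 3 and 2 without pubertal replicate 1 or pubertal replicate 3. With fewer goats separation arises more readily, and no share over other genes was computed for these counts.

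Deviations of same-numbered libraries correlated at -0.0286, -0.107 and 0.0876, so the numbers were not treated as pairs. With the replicate block, 0 subunit genes and 0 subunit transcripts passed the adjusted threshold. In that fit 1 of 54 other glutamate genes was higher at an unadjusted p under 0.05 (3.64% of all genes), and 1 of all genes passed the adjusted threshold against 0. That count was 2 after neuron-marker centring and 0 to 4 with 1 library left out, with 4 without pubertal replicate 2. The FPKM table gives no counts behind a value, and 95% intervals of the 9 subunits ended between -25.4% and -3.90% below and between 9.15% and 48.1% above.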
